A study of Mus musculus with 9 samples.

Results

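Among the genes counted in CH12F3 cells, 48 were at or near 0 in DMSO and read out in every library of cells treated with tazemetostat or valemetostat. The 48 genes were taken from 45361 rows of the count table by their levels in CPM, the count scaled to a common library total. A gene had a mean under 0.2 CPM over the DMSO libraries and at least 0.8 CPM in each of the 6 inhibitor libraries. These thresholds passed 52 rows, of which 4 were set aside because the rule leaves out certain symbols and symbol families. The levels in all 9 libraries therefore chose the genes, and both comparisons with DMSO describe them without testing them.

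CH12F3 is a mouse B-lymphoma line that switches from IgM to IgA in culture. All 9 libraries came from a Ligase4 KO derivative, which lacks the ligase of classical DNA end joining, and all cells had been kept for 24 h with TGF-β, IL-4 and anti-CD40. The groups were 3 libraries with tazemetostat, an EZH2 inhibitor, 3 with valemetostat, which inhibits EZH1 as well as EZH2, and 3 with DMSO, the solvent. The study asked how transcription changes after either compound. The labels do not give doses, the time in inhibitor, the number of Ligase4 KO clones or whether replicates were separate cultures. The p-values therefore reflect how far these libraries differ from each other, and that spread may be technical.

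EZH2 and its relative EZH1 are the catalytic subunits of Polycomb repressive complex 2 (PRC2), which places methyl groups on lysine 27 of histone H3. Trimethylated lysine 27 marks genes that a cell type keeps silent, among them genes of other tissues and of development. In mammals PRC2 is recruited to stretches rich in CpG, the dinucleotide in which C is followed by G, and B cells rely on EZH2 during the germinal centre reaction. Only RNA was measured here, and no value bears on histone methylation at these genes.

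The promoters of the 48 genes covered a wide span of CpG content. RefSeq promoter windows on GRCm38.p6, 250 bases before to 50 after a start, were found for 34 of the 48 genes and gave 40 promoters. Of these, 4 are shown to set this span side by side, those of Mctp1 (chr13:76579347-76579646, plus strand), Map2 (chr1:66175079-66175378, plus strand), Rgs21 (chr1:144567618-144567917, minus strand) and Enpp1 (chr10:24712110-24712409, minus strand). They are written 5′ to 3′ on the strand of the gene, and capitals mark each CpG.
Mctp1: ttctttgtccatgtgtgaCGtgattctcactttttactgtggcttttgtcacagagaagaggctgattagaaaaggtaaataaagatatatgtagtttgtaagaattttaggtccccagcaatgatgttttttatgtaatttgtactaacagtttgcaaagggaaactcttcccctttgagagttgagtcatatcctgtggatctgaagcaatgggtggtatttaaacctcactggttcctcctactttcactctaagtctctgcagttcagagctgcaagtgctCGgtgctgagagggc
Map2: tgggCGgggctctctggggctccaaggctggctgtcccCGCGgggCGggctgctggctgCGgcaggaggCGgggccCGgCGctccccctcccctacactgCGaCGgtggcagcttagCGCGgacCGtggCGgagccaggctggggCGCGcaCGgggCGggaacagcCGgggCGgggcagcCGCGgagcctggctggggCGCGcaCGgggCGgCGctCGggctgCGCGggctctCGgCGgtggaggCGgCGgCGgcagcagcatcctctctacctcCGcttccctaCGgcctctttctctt
Rgs21: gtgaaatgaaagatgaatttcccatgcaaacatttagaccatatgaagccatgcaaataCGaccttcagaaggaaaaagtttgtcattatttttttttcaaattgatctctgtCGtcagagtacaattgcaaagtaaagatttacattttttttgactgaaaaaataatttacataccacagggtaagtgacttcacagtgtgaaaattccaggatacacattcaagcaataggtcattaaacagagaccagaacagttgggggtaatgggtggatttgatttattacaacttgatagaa
Enpp1: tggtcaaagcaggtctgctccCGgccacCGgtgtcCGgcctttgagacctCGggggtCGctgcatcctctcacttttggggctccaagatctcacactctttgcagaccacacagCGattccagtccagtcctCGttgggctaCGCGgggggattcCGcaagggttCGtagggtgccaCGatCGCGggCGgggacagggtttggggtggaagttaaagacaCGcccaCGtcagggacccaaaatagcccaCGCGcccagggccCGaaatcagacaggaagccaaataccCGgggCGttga

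Counts per gene do not show which start was in use, so a window may not be the promoter of the RNA counted. In their windows Mctp1, the most abundant of the genes, and Rgs21, without a count in DMSO, each had 2 CpG in the 300 bases. Map2 had 37 and Enpp1, likewise without a count in DMSO, had 22. A promoter was called CpG-rich at an observed over expected CpG ratio of at least 0.6 and a GC content of at least 50%. That held for 14 of the 40 promoters (35.0%), for 64.6% of the promoters of all genes tested, for 17.6% of those of genes under 0.2 CPM in every library and for 33.5% of all 32851 promoters. Some genes, such as Fam107a, gave several windows, which are not independent. By gene, a CpG-rich promoter was found in 14 of 34. That compares with 6870 of 9529 genes tested, 1218 of 6724 under 0.2 CPM in every library and 9717 of 27025 in all. The median ratio was 0.423 in the 48 genes, 0.749 in genes tested, 0.238 in genes under 0.2 CPM throughout and 0.384 in all promoters. The share of CpG-rich promoters in the 48 genes was close to that of all promoters and lay between those of expressed and of silent genes. CpG-rich examples were Apba1, Serpine2, Sh3rf3 and Map7d2, which has a second promoter with 0 CpG, and CpG-poor ones were Dnah12, Lcn10, Azgp1 and Gpr141.

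**Figure D1:**
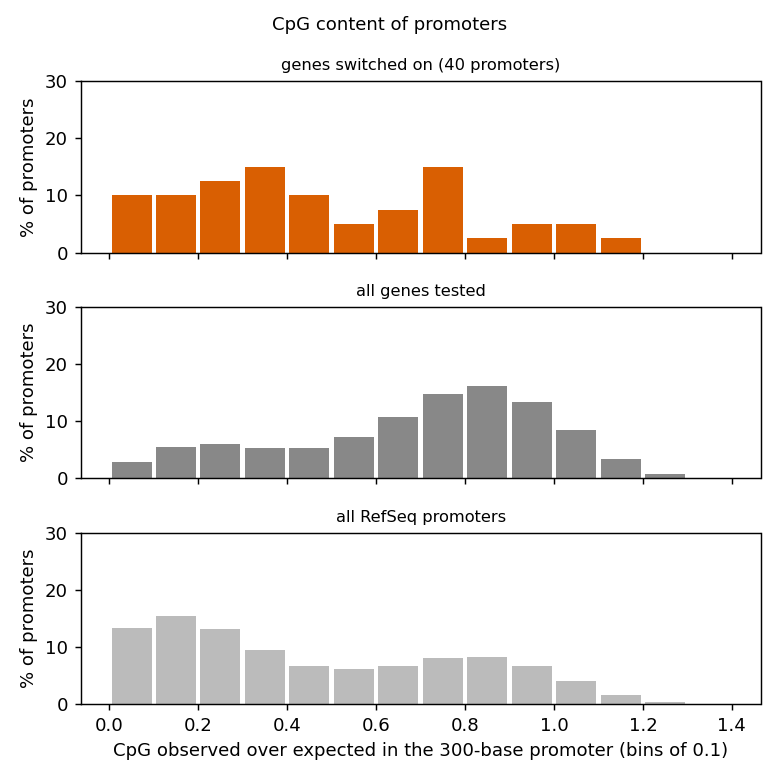
Histograms of the CpG observed over expected ratio (x axis, bins of 0.1) as a percent of promoters (y axis) for the genes switched on, for all genes tested and for all RefSeq promoters. The 40 promoters of the genes switched on spread from 0 to above 1.1, while those of genes tested pile up between 0.7 and 1.0.

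Short motifs were searched on both strands of the same windows. TATAAA was in 4 of the 40 promoters (10%), against 13.6% of all promoters, 7.08% of those of genes tested and 21.1% of those of genes under 0.2 CPM in every library, and these were those of Afp, Dnah12, Gpr141 and 1 of the 2 of Etv1. CCGCCC, the GC box, was in 17 (42.5%), among which Fam107a counts more than once, against 35.7% of all promoters, 61.2% in genes tested and 24.5% in genes under 0.2 CPM. TGANTCA, the AP-1 site, was in 2 (5.0%, against 7.81%), those of Mctp1 and Arfgef3, and CACGTG, the E-box, in 2 (5.0%, against 7.15%). The interferon-stimulated response element, searched as 2 GAAA with 2 bases between, was in 0 of the 40, against 3.44% of all promoters. Ido1 and Ido2 had no window, and with 40 windows and so low a share the 0 is not read as an absence. The motifs overlap in part with the CpG count, since CCGCCC contains a CpG, and a match describes the window only.

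Library totals lay between 34080504 and 46675110 counts, so 3 counts corresponded to 0.0643 to 0.088 CPM. The B cell label matched the markers, since all 15 B cell markers examined reached at least 12.7 CPM in every library. Lig4, the gene knocked out, had 0.486 to 1.35 CPM with tazemetostat, 0.891 to 1.17 CPM with valemetostat and 0.643 to 1.14 CPM in DMSO, and since the deleted part of the gene is unknown these values check nothing. Markers of other cell types were summed per library. The 28 smooth muscle and stromal genes came to 120.2 to 125 CPM in inhibitor libraries and 12.6 to 15.6 CPM in DMSO, of which Vcam1, which some B cells also make, held 104 CPM with tazemetostat, 103 CPM with valemetostat and 10.3 CPM in DMSO. Without Vcam1 that list came to 19.0 to 20.0 CPM with inhibitor and 2.94 to 4.30 CPM in DMSO, and Col1a2, Lmod1, Lox and Mgp were at 0 throughout. The 40 T cell and NK cell genes came to 276 to 293 CPM against 183 to 197 CPM in DMSO, with Cd2, Bcl11b and Eomes among 7 at 0, and to 218 to 237 CPM against 151 to 161 CPM without Tcf7. Endothelial genes came to 56.7 to 67.7 CPM against 50 to 53.8 CPM, with Kdr, Cldn5 and Emcn among 7 of 24 at 0, and without Egfl7 the sum was 9.85 to 14.5 CPM against 6.94 to 9.63 CPM. Epithelial genes came to 185 to 206 CPM against 163 to 173 CPM, with Cdh1, Krt5 and Krt14 among 9 of 34 at 0, and without St14, which gained most, the sum was 105.5 to 119 CPM against 114 to 124 CPM. Myeloid genes came to 145 to 159 CPM against 138 to 144 CPM, with Cd14 and S100a8 among 12 of 42 at 0, and without Sirpa the sum was 112.5 to 121 CPM against 114 to 118 CPM. Mast cell and basophil genes came to 214 to 226 CPM against 176 to 205 CPM, with Cpa3, Tpsab1 and Tpsb2 among 7 of 21 at 0, and without Srgn the sum was 36.9 to 44.3 CPM against 30.6 to 32.6 CPM. Erythroid and megakaryocyte genes came to 868 to 961 CPM against 1048 to 1110.0 CPM, with Hbb-bs, Pf4 and Rhag the 3 of 28 at 0. Other listed genes rose (edgeR, adjusted p under 0.05). With either compound 5 of 6 mast cell and basophil genes measured, 8 of 17 myeloid and 3 of 8 endothelial genes were called higher. In these lists 3 myeloid genes were called lower. Of 14 epithelial genes, tazemetostat raised 7 and lowered 2 and valemetostat raised 4 and lowered 2. Genes near 0 in DMSO could be measured only where inhibitor libraries were high. The part of other cells in the levels below was not tested, and in bulk RNA fewer cells of a kind and less RNA per cell cannot be told apart.

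Together the 48 genes held 138, 137 and 144 CPM in the tazemetostat libraries, 143, 142 and 137 CPM in the valemetostat libraries and 3.90, 3.11 and 4.49 CPM in the DMSO libraries. The inhibitor libraries lay close together and both compounds covered nearly the same range, far above DMSO. In DMSO the counts were few: 4 genes (Ido1, Rgs21, Shroom3 and Enpp1) had 0 counts in all 3 libraries, 10 had 1 to 3 counts over the group and the other 34 had at most 22. The separate DMSO libraries held a count of 35, 32 and 29 of the genes. Levels in treated cells were low. The median gene averaged 1.79 CPM with tazemetostat, 1.86 CPM with valemetostat and 0.0762 CPM in DMSO, and the 5 highest genes held 41.0% of the summed inhibitor CPM. On the length-corrected TPM scale none of the 48 reached 18.6 TPM, the median of the 11078 genes with at least 1 CPM over the inhibitor libraries.

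All 48 passed edgeR's quasi-likelihood test at an adjusted p under 0.05 as higher with either compound, and in all 48 the inhibitor libraries lay above the DMSO libraries. Over all 12580 genes tested, 19.9% were called higher with tazemetostat, 20.5% were called higher with valemetostat, and 17.7% had every inhibitor library above every DMSO library. Nothing is read from these counts of members, which the choice of genes fixed. The 3 genes just inside the DMSO threshold were Ripk3 at 0.199 CPM, Tmem71 at 0.183 CPM and Fam107a at 0.182 CPM, and just outside it were Ephb2 at 0.208, Brdt at 0.223 and Arsb at 0.225 CPM. At the inhibitor threshold the lowest library stood at 0.805 CPM for AU015228, 0.815 CPM for Sh3rf3 and 0.824 CPM for Ido2, and just outside it at 0.776 CPM for Ascl4, 0.745 CPM for Nhsl1 and 0.715 CPM for Pou2f3.

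**Figure D2:**
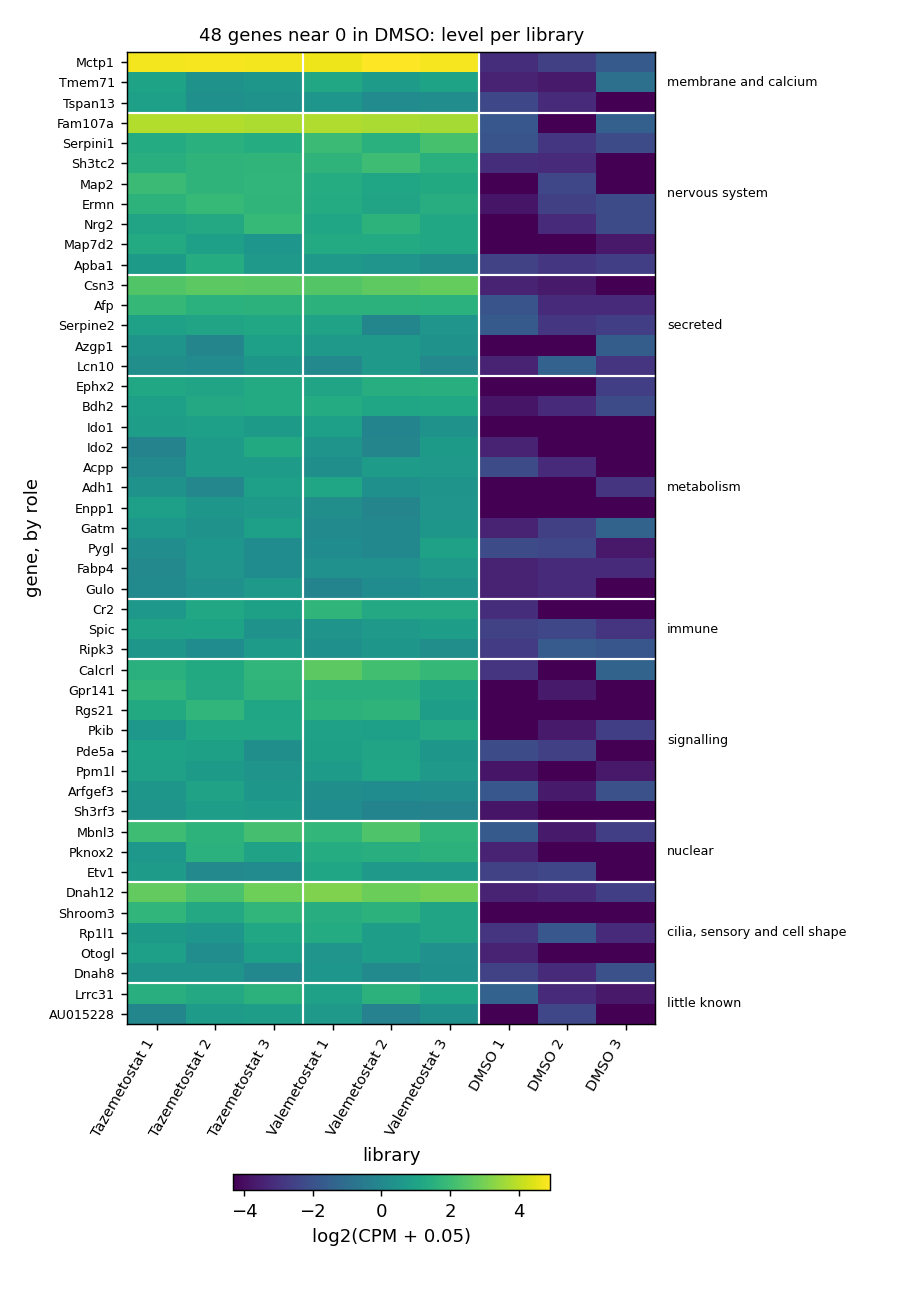
Heat map of the 48 genes (rows, grouped by role) in 9 libraries (columns, tazemetostat, valemetostat, then DMSO), coloured by log2(CPM + 0.05). Mctp1 and Fam107a are the brightest rows, the 6 inhibitor columns look alike, and the DMSO columns hold scattered low values.

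The most abundant gene belonged to a small group of membrane proteins. Mctp1 encodes a calcium-binding protein with C2 domains that sits in intracellular membranes. Mctp1 had 27.0, 27.0 and 26.7 CPM with tazemetostat, 25.6, 29.8 and 27.3 CPM with valemetostat and 0.0643, 0.117 and 0.253 CPM in DMSO. The treated libraries were close to each other, and the ratio over DMSO was 195 with tazemetostat (95% counting interval 120.2 to 342) and 199.9 with valemetostat (123 to 350.2). Its level of 11.4 ± 0.291 TPM with tazemetostat, 11.8 ± 0.741 TPM with valemetostat and 0.09 ± 0.0819 TPM in DMSO (SD, n = 3 each, as for every ± on a level below) was the highest of the 48, above 36.9% of the 11078 expressed genes. Tspan13, a tetraspanin, and Tmem71, a transmembrane protein of little known function, were lower. Tspan13 had 1.42 ± 0.335 CPM with tazemetostat, 1.17 ± 0.185 CPM with valemetostat and 0.0696 ± 0.0756 CPM in DMSO. Tmem71 had 2.0, 1.27 and 1.44 CPM with tazemetostat, 2.22, 1.64 and 2.01 CPM with valemetostat and 0.0428, 0.0293 and 0.477 CPM in DMSO. The DMSO values of Tmem71 were uneven, with 17 of its 20 counts in replicate 3, and did not reach the treated libraries.

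Genes best known from the nervous system made up 8 members. Fam107a encodes an actin-associated protein abundant in brain and induced by stress. Fam107a had 14.1, 14.1 and 13.4 CPM with tazemetostat, 13.7, 13.4 and 12.7 CPM with valemetostat and 0.236, 0 and 0.309 CPM in DMSO. It was the second most abundant by CPM, with no count in DMSO replicate 2 and 11 in each of the other DMSO libraries. Map2 encodes a microtubule-associated protein of dendrites. Map2 had 3.88, 3.17 and 3.31 CPM with tazemetostat, 2.58, 2.13 and 2.36 CPM with valemetostat and 0, 0.147 and 0 CPM in DMSO. All its tazemetostat libraries exceeded all its valemetostat libraries in CPM, whereas its mean on the deposited TPM scale was higher with valemetostat, at 1.56 ± 0.33 TPM with tazemetostat, 1.85 ± 0.825 TPM with valemetostat and 0.113 ± 0.196 TPM in DMSO. Its exons overlap a gene on the other strand, as do those of Ermn, Apba1, Adh1, Pde5a, Arfgef3, Shroom3, Dnah8 and Lrrc31, 9 of the 48 in all. Galnt5, which overlaps Ermn, had 0 CPM in every library. Since the use of strand in counting is unknown, the counts of the other 8 are uncertain. Serpini1, or neuroserpin, inhibits tissue plasminogen activator. Serpini1 had 2.49, 2.82 and 2.54 CPM with tazemetostat, 3.8, 2.87 and 4.59 CPM with valemetostat and 0.214, 0.088 and 0.168 CPM in DMSO.

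Sh3tc2 and Ermn are known from myelinating glia. Sh3tc2 is needed in Schwann cells to form myelin. Sh3tc2 had 2.69, 3.15 and 3.2 CPM with tazemetostat, 3.14, 4.02 and 2.82 CPM with valemetostat and 0.0643, 0.0587 and 0 CPM in DMSO. Ermn, or ermin, is a cytoskeletal protein of oligodendrocytes. Ermn had 3.06, 3.54 and 3.23 CPM with tazemetostat, 2.5, 2.04 and 2.66 CPM with valemetostat and 0.0214, 0.117 and 0.168 CPM in DMSO. The treated libraries of both genes lay above DMSO, and the Ermn tazemetostat libraries all lay above its valemetostat libraries. Nrg2, a neuregulin that signals through ErbB receptors, had 2.65 ± 0.83 CPM with tazemetostat, 2.49 ± 0.534 CPM with valemetostat and 0.0757 ± 0.0855 CPM in DMSO. Map7d2, a microtubule-binding partner of kinesin, had 1.87 ± 0.541 CPM with tazemetostat, 2.38 ± 0.0885 CPM with valemetostat and 0.00936 ± 0.0162 CPM in DMSO, from 1 DMSO count. Apba1, a synaptic adaptor that binds amyloid precursor protein, had 1.88 ± 0.573 CPM with tazemetostat, 1.35 ± 0.208 CPM with valemetostat and 0.11 ± 0.0204 CPM in DMSO.

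**Figure D3:**
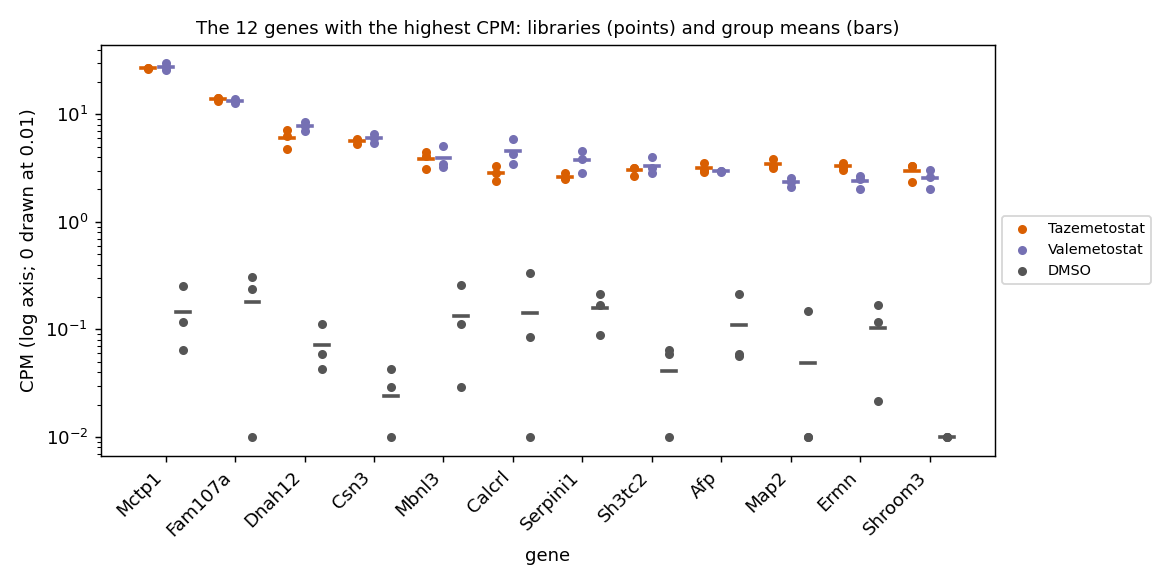
CPM (log y axis, 0 drawn at 0.01) of the 12 genes with the highest mean over inhibitor libraries, with 3 libraries per group as points and group means as bars for tazemetostat, valemetostat and DMSO. In each gene the inhibitor points lie above the DMSO points, and in Map2 and Ermn the tazemetostat points lie above the valemetostat points.

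Secreted proteins of milk, serum and the reproductive tract made up 5 members. Csn3 encodes kappa-casein, which stabilises casein micelles in milk. Csn3 had 5.25, 5.86 and 5.71 CPM with tazemetostat, 5.39, 6.06 and 6.54 CPM with valemetostat and 0.0428, 0.0293 and 0 CPM in DMSO. With 3 DMSO counts in all, its ratio over DMSO was 217 with tazemetostat (95% counting interval 73.9 to 1054) and 232 with valemetostat (79.1 to 1128), intervals that cover counting error only. At 9.47 ± 0.529 TPM with tazemetostat, 10.1 ± 0.925 TPM with valemetostat and 0.0433 ± 0.0404 TPM in DMSO it was the second highest of the 48 per transcript length. Afp encodes alpha-fetoprotein, the main serum protein of the fetus. Afp had 3.51, 2.89 and 3.01 CPM with tazemetostat, 2.99, 2.96 and 2.91 CPM with valemetostat and 0.214, 0.0587 and 0.0562 CPM in DMSO. The valemetostat libraries of Afp were nearly level, and 10 of its 14 DMSO counts were in replicate 1. Serpine2, an inhibitor of thrombin, had 2.03 ± 0.147 CPM with tazemetostat, 1.4 ± 0.526 CPM with valemetostat and 0.152 ± 0.0914 CPM in DMSO. Azgp1, a serum glycoprotein shaped like an MHC class I chain, had 1.32 ± 0.469 CPM with tazemetostat, 1.41 ± 0.138 CPM with valemetostat and 0.0936 ± 0.162 CPM in DMSO, with all 10 DMSO counts in replicate 3. Lcn10, a lipocalin of the epididymis, had 1.19 ± 0.191 CPM with tazemetostat, 1.15 ± 0.325 CPM with valemetostat and 0.15 ± 0.151 CPM in DMSO.

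Enzymes and carriers of metabolism were the largest group, with 11 members. Roles were assigned after the names were seen, and the rule had left out symbols starting with Slc. No share over all genes was taken, so the sizes of the groups reflect how broad each was made. Gene means of the 11 spanned 1.12 to 2.24 CPM with tazemetostat, 1.06 to 2.47 CPM with valemetostat and 0 to 0.166 CPM in DMSO. Ido1 and Ido2 open the ring of tryptophan, the first step of its breakdown to kynurenine, and lie beside each other in the genome. Ido1 had 1.76, 1.81 and 1.57 CPM with tazemetostat, 1.81, 0.833 and 1.28 CPM with valemetostat and 0 CPM in all 3 DMSO libraries. Against a floor of 3 counts over the DMSO group, Ido1 was at least 66.7-fold higher with tazemetostat and at least 51.5-fold higher with valemetostat. Ido2 had 0.824, 1.62 and 2.4 CPM with tazemetostat, 1.3, 0.862 and 1.58 CPM with valemetostat and 0.0428, 0 and 0 CPM in DMSO. Ido2 varied most of all members among tazemetostat libraries, with a coefficient of variation of 48.8% against a median of 18.4% over the 48 genes. Enpp1 makes inorganic pyrophosphate and breaks down ATP and cGAMP outside the cell. Enpp1 had 1.8, 1.41 and 1.49 CPM with tazemetostat, 1.12, 0.862 and 1.36 CPM with valemetostat and 0 CPM in all 3 DMSO libraries. It was at least 61.2-fold higher with tazemetostat and at least 43.4-fold higher with valemetostat. Ephx2, the soluble epoxide hydrolase, and Bdh2, a hydroxybutyrate dehydrogenase, were the most abundant of the group. Ephx2 had 2.21, 2.06 and 2.46 CPM with tazemetostat, 2.02, 2.61 and 2.77 CPM with valemetostat and 0, 0 and 0.112 CPM in DMSO. Bdh2 had 2.2 ± 0.35 CPM with tazemetostat, 2.28 ± 0.22 CPM with valemetostat and 0.0829 ± 0.0764 CPM in DMSO. The remaining members were Adh1, an alcohol dehydrogenase of liver, Gatm, which starts creatine synthesis, Gulo, which completes vitamin C synthesis, Pygl, the liver glycogen phosphorylase, Acpp, the prostatic acid phosphatase, and Fabp4, the fatty acid-binding protein of adipocytes. Adh1 had 1.31 ± 0.45 CPM with tazemetostat, 1.53 ± 0.511 CPM with valemetostat and 0.0281 ± 0.0486 CPM in DMSO. Fabp4 had 1.12 ± 0.198 CPM with tazemetostat, 1.31 ± 0.161 CPM with valemetostat and 0.0526 ± 0.00851 CPM in DMSO. Pygl had 1.19 ± 0.172 CPM with tazemetostat, 1.31 ± 0.518 CPM with valemetostat and 0.115 ± 0.0766 CPM in DMSO, the widest spread among valemetostat libraries of the 48 genes at a coefficient of variation of 39.6%, against a median of 18.3%.

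Signalling proteins numbered 8. Calcrl, the receptor that with RAMP partners binds CGRP and adrenomedullin, had the highest mean over the 6 inhibitor libraries among them. Calcrl had 2.82, 2.41 and 3.28 CPM with tazemetostat, 5.87, 4.25 and 3.45 CPM with valemetostat and 0.0857, 0 and 0.337 CPM in DMSO. Its valemetostat libraries were all above its tazemetostat libraries, and its DMSO counts were 4, 0 and 12. Gpr141 is an orphan G protein-coupled receptor. Gpr141 had 3.19, 2.29 and 3.15 CPM with tazemetostat, 2.76, 2.79 and 1.96 CPM with valemetostat and 0, 0.0293 and 0 CPM in DMSO. Its tazemetostat mean of 2.88 CPM was close to the 2.84 CPM of Calcrl. A single DMSO count stood behind its ratio of 334 with tazemetostat (95% counting interval 59.5 to 13215) and 291 with valemetostat (51.8 to 11532). Rgs21 speeds GTP hydrolysis by G protein alpha subunits and is known from taste cells. Rgs21 had 2.36, 3.33 and 2.1 CPM with tazemetostat, 2.96, 3.16 and 1.77 CPM with valemetostat and 0 CPM in all 3 DMSO libraries. It was at least 102-fold higher with tazemetostat and at least 102-fold higher with valemetostat. Pkib, an inhibitor of protein kinase A, had 1.96 ± 0.421 CPM with tazemetostat, 2.0 ± 0.294 CPM with valemetostat and 0.0472 ± 0.0583 CPM in DMSO. Pde5a, the phosphodiesterase of cyclic GMP, had 1.67 ± 0.447 CPM with tazemetostat, 1.76 ± 0.321 CPM with valemetostat and 0.0963 ± 0.0876 CPM in DMSO. Ppm1l, a PP2C-type phosphatase, Arfgef3, a protein of the ARF exchange factor family, and Sh3rf3, a ubiquitin ligase with SH3 domains, averaged 0.907 to 1.73 CPM in treated cells. On the TPM scale with limma, Arfgef3 did not pass with tazemetostat (adjusted p = 0.146) or valemetostat (adjusted p = 0.313), and Ppm1l (adjusted p = 0.0587) and Sh3rf3 (adjusted p = 0.215) did not pass with valemetostat.

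Genes grouped under the immune system numbered 3, with Ido1 and Ido2 placed under metabolism. The rule had left out symbols starting with Oas or Gbp and the genes Lyz2 and Fcer1a, so this number does not measure how many immune genes were switched on. Cr2 encodes CD21, the complement receptor of mature B cells and follicular dendritic cells. Cr2 had 1.47, 2.22 and 1.82 CPM with tazemetostat, 3.19, 2.3 and 2.31 CPM with valemetostat and 0.0643, 0 and 0 CPM in DMSO. All its valemetostat libraries lay above its tazemetostat libraries, and its 3 DMSO counts were in replicate 1. Spic, an ETS factor of red pulp macrophages and some B cells, had 1.74 ± 0.413 CPM with tazemetostat, 1.51 ± 0.192 CPM with valemetostat and 0.12 ± 0.0321 CPM in DMSO. Ripk3, the kinase of necroptosis and the member nearest the DMSO threshold, had 1.38 ± 0.298 CPM with tazemetostat, 1.23 ± 0.156 CPM with valemetostat and 0.199 ± 0.0816 CPM in DMSO. The nuclear proteins were Mbnl3, Pknox2 and Etv1. Here too the rule had left out symbols, those starting with Zfp or Hox and the genes Hdac9 and Nab1. Mbnl3 belongs to the muscleblind family of RNA splicing factors. Mbnl3 had 4.1, 3.1 and 4.44 CPM with tazemetostat, 3.42, 5.03 and 3.23 CPM with valemetostat and 0.257, 0.0293 and 0.112 CPM in DMSO. Pknox2, a TALE homeodomain factor, had 2.11 ± 0.743 CPM with tazemetostat, 2.75 ± 0.221 CPM with valemetostat and 0.0143 ± 0.0247 CPM in DMSO. Etv1, an ETS factor, had 1.23 ± 0.383 CPM with tazemetostat, 1.69 ± 0.346 CPM with valemetostat and 0.0918 ± 0.08 CPM in DMSO.

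Cilia, sense organs and cell shape accounted for 5 members. Dnah12 encodes a heavy chain of the dynein motors in cilia. Dnah12 had 6.33, 4.72 and 7.2 CPM with tazemetostat, 8.53, 7.01 and 7.77 CPM with valemetostat and 0.0428, 0.0587 and 0.112 CPM in DMSO. It was the third by CPM, yet its long transcript put it at 0.627 ± 0.123 TPM with tazemetostat, 0.793 ± 0.085 TPM with valemetostat and 0.00667 ± 0.00577 TPM in DMSO, rank 38 of the 48. Dnah8, a dynein heavy chain of sperm flagella, had 1.19 ± 0.221 CPM with tazemetostat, 1.19 ± 0.186 CPM with valemetostat and 0.128 ± 0.0689 CPM in DMSO. Shroom3 constricts the apical side of epithelial cells. Shroom3 had 3.3, 2.34 and 3.31 CPM with tazemetostat, 2.6, 3.02 and 2.04 CPM with valemetostat and 0 CPM in all 3 DMSO libraries. It was at least 115-fold higher with tazemetostat and at least 98.7-fold higher with valemetostat. Rp1l1, a protein of photoreceptor cilia, and Otogl, a protein of the gelatinous membranes of the inner ear, averaged 1.44 to 2.09 CPM in treated cells and 0.126 CPM (Rp1l1) and 0.0143 CPM (Otogl) in DMSO. Lrrc31, a leucine-rich repeat protein, had 2.67 ± 0.335 CPM with tazemetostat, 2.32 ± 0.585 CPM with valemetostat and 0.136 ± 0.161 CPM in DMSO. AU015228, which GENCODE lists as a processed pseudogene, had 1.41 ± 0.451 CPM with tazemetostat, 1.19 ± 0.376 CPM with valemetostat and 0.0489 ± 0.0847 CPM in DMSO, and reads of its parent gene could be counted there. The other 47 genes are annotated as protein coding.

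Relatives of these genes gave a mixed picture. The families were drawn up after the names of the 48 genes were known, and their calls share the DMSO libraries with the rule. Csn2, beta-casein, had 0.670 ± 0.244 CPM with tazemetostat, 0.887 ± 0.0604 CPM with valemetostat and 0.0289 ± 0.0294 CPM in DMSO (SD, n = 3 each) and rose with both, while Csn1s1 and Csn1s2b had 0 counts in all libraries. Alb, albumin, which neighbours Afp, had 0 counts in all inhibitor libraries and 2 in DMSO. Adh4 rose with both compounds to 0.695 ± 0.115 CPM with tazemetostat and 0.690 ± 0.353 CPM with valemetostat, against 0.00714 ± 0.0124 CPM in DMSO (SD, n = 3 each). Csn2 and Adh4, near 0 in DMSO, entered the test only through the inhibitor libraries and had to differ. Fabp5, already abundant, had log2 changes of 1.51 ± 0.06 (tazemetostat) and 1.45 ± 0.06 (valemetostat, edgeR, ± SE, adjusted p = 4.95e-17 and 1.07e-16), and Fabp7 had 0.112 ± 0.0574 CPM with tazemetostat, 0.142 ± 0.0592 CPM with valemetostat and 0 CPM in DMSO. Mbnl1 and Mbnl2, the abundant muscleblind genes, fell with both, Mbnl1 to 128 CPM with tazemetostat and 134 CPM with valemetostat against 163 CPM in DMSO.

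Of the dynein heavy chains, Dnah11 rose with both, to 1.82 ± 0.530 CPM with tazemetostat and 1.10 ± 0.344 CPM with valemetostat, against 0.333 ± 0.239 CPM in DMSO (SD, n = 3 each), and 7 of the 15 in the table were tested. Ramp2, a partner of Calcrl, rose to 8.68 CPM with tazemetostat and 8.60 CPM with valemetostat against 6.18 CPM in DMSO, whereas Ramp1 had 0 counts. Cd55, a complement regulator like Cr2, rose by 0.97 with either compound on the log2 scale, with standard errors of 0.16. On the TPM scale with limma neither Dnah11 (adjusted p = 0.109 with tazemetostat and 0.243 with valemetostat) nor Ramp2 (adjusted p = 0.084 and 0.0689) passed. Ripk2, a relative of Ripk3 in innate signalling, fell to 70.8 CPM with either compound, against 91.2 CPM in DMSO. Several relatives with higher levels were present in all 3 groups. Map4, a relative of Map2, averaged 129.6 CPM with tazemetostat, 128 CPM with valemetostat and 127 CPM in DMSO. Spi1, a relative of Spic, averaged 37.8 CPM with tazemetostat, 36.5 CPM with valemetostat and 36.7 CPM in DMSO.

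Textbook lists of tissue genes and symbol families placed 14 of the 48 genes in 10 of 35 lists, and those 10 are described in detail below. Most of the lists without a member also had more genes higher than lower with either compound, so such a lean is not particular to lists with a member. Of 105 genes of cytokines, chemokines and their receptors, tazemetostat raised 43 and lowered 11 and valemetostat raised 45 and lowered 9. Smooth muscle and stromal genes had 8 of 11 measured higher and 0 lower with either compound, and T cell and NK cell genes 10 of 22 and 0. Few lists went otherwise. Of 14 erythroid and megakaryocyte genes, tazemetostat raised 4 and lowered 4 and valemetostat raised 2 and lowered 3. Of 30 WNT, BMP, FGF and hedgehog genes, tazemetostat raised 4 and lowered 5 and valemetostat raised 6 and lowered 3. Counts of the lists with a member include the members, whose rise the rule fixed. All counts here can also include genes near 0 in DMSO, measured only where inhibitor libraries were high. They therefore describe the lists without testing them. Neuronal genes had 27 measured of 81 in the table, of which tazemetostat raised 12 and lowered 2 and valemetostat raised 10 and lowered 2, with median log2 changes of 0.22 and 0.34. The neuronal medians were 0.34 with tazemetostat without DMSO replicate 1, and 0.15 with tazemetostat and 0.081 with valemetostat among genes with 1 CPM in 3 libraries. Of the 22 neuronal genes under that filter, tazemetostat raised 8 and lowered 2 and valemetostat raised 7 and lowered 2. Over all genes tested the medians were 0.00079 and 0.0073, with 19.9% higher and 18.2% lower with tazemetostat and 20.5% higher and 18.7% lower with valemetostat. Of 10 glial genes measured, 3 rose with tazemetostat and 4 with valemetostat, and none fell, the 2 members Fam107a and Sh3tc2 included, with medians of 0.32 and 0.20. The tazemetostat median of the glial genes was 0.20 without DMSO replicate 1 and 0.19 without tazemetostat replicate 1. Their valemetostat median was -0.02 without DMSO replicate 1, 0.061 and 0.019 without valemetostat replicates 2 and 3, and 0.49 without valemetostat replicate 1. Of 7 liver genes measured, tazemetostat raised 3 and lowered none and valemetostat raised 2 and lowered 1, with medians of 1.15 and 0.52. The valemetostat median of the liver genes lay between 0.53 and 0.97 as single libraries were left out, highest without DMSO replicate 2 and at or above 0.79 without any 1 of DMSO replicate 1, tazemetostat replicates 2 and 3 and valemetostat replicates 1 and 3. Among 4 milk and salivary genes measured, 2 rose with each compound, Csn3 and Csn2, with list medians of 2.25 and 2.59, and Csn2 drops out where a test requires 1 CPM in 3 libraries. The rule fixed the rise of Csn3, a member. Csn2, at 0.0289 CPM in DMSO, was measured only through the inhibitor libraries and had to differ, so nothing is read from this list. On the TPM scale with limma the neuronal genes that rose numbered 5 with tazemetostat and 6 with valemetostat, and the medians of these 4 lists were between 0.015 and 0.69.

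The larger symbol families were counted in the same way, beside shares over all genes tested of 19.9% higher and 18.2% lower with tazemetostat and of 20.5% and 18.7% with valemetostat. Members and genes near 0 in DMSO limit these counts as they do those above. Among 86 G protein-coupled receptors measured of 289, tazemetostat raised 25 and lowered 11, and valemetostat raised 27 and lowered 12, with medians of 0.11 (0.073 without DMSO replicate 1) and 0.14. Of 82 dynein and cilia genes measured of 147, tazemetostat raised 12 and lowered 9, and valemetostat raised 13 and lowered 12. The number lowered was 3 with tazemetostat and 6 with valemetostat when DMSO replicate 2 was left out, 5 with tazemetostat without its replicate 3 and 7 with valemetostat without its replicate 2. Cytochrome P450, UGT, glutathione transferase and related genes, which include Adh1, numbered 278 in the table and had 27 of the 54 measured up and 2 down with either compound, and medians of 0.42 with tazemetostat and 0.41 with valemetostat. Of 32 serine proteases and inhibitors measured of 242, which include Serpine2 and Serpini1, tazemetostat raised 15 and lowered 0, and valemetostat raised 14 and lowered 2, with medians of 0.42 and 0.41. The tazemetostat median of the serine proteases and inhibitors was 0.74 without DMSO replicate 3. Of 19 phosphodiesterases and cyclases measured of 52, 7 rose and 4 fell with either compound. GTPase regulators, 269 measured of 394, had 65 up and 44 down with tazemetostat and 65 up and 47 down with valemetostat. The medians of the cilia genes, the phosphodiesterases and cyclases and the GTPase regulators lay near 0 and changed sign under at least 1 alternative. On the TPM scale with limma 33 of these regulators rose with tazemetostat and 36 with valemetostat, and with valemetostat 17 receptors and 17 genes of the P450 list rose, and the medians of the receptor, P450 and serine protease lists were between 0.023 and 0.19.

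Genes beside the 48 along the chromosome were also examined, in GENCODE's order of protein-coding genes. Of the neighbours, 38.7% had enough counts to be tested, against 70.5% of the neighbours of other genes tested. Of the 36 neighbours tested, 9 were called at least 2-fold higher with both compounds. That held for 629 of the 16596 tested neighbours of other genes (3.79%). The 9 include Ido1 and Ido2, which neighbour each other and whose rise the rule fixed. The other neighbours called at least 2-fold higher with both compounds, named for meeting this criterion and given as a description with no test, were Rgs18 beside Rgs21, Acox2 beside Fam107a, Tfpi beside Calcrl, Slc9b2 beside Bdh2, Arl4a beside Etv1, Psd2 beside Nrg2 and AA467197 beside Gatm. Arl4a, an ARF-like GTPase, averaged 17.7 CPM with tazemetostat, 15.7 CPM with valemetostat and 4.02 CPM in DMSO. Rgs18, a regulator of G protein signalling like Rgs21, averaged 0.448 CPM with tazemetostat, 0.250 CPM with valemetostat and 0 CPM in DMSO. Tfpi, an inhibitor of blood coagulation, averaged 0.731 CPM with tazemetostat, 0.778 CPM with valemetostat and 0.0196 CPM in DMSO. Rgs18, Acox2, Tfpi and Slc9b2 had DMSO means of 0, 0, 0.0196 and 0.0196 CPM, so that they entered the test only through the inhibitor libraries and had to differ. They are among the 9, so the counts of called neighbours describe these genes, and the difference from other genes was not tested.

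Valemetostat against tazemetostat is a comparison in which the rule set no direction, since it treats both sets of libraries alike. It did ask for at least 0.8 CPM in each library of both, so genes low with 1 compound were left out, which limits how far the 48 can differ between the compounds. None of the 48 genes was called between the compounds by edgeR's quasi-likelihood test with Benjamini-Hochberg adjustment over 12580 genes, of which 40 (0.318%) were called. At an unadjusted p under 0.05 there was 1 of the 48 with edgeR, 3 with DESeq2 and 5 with limma on TPM, with 0 called by either of those tools. The log2 difference was above 0 in 23 genes and below 0 in 25, and its median was -0.0088, against -3.5e-05 over all genes tested. The libraries of the compounds did not overlap in 8 of the 48 (16.7%), against 14.2% of all genes tested, which is no result about these genes.

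The data bound the difference tightly for the abundant genes and loosely for the rest. Mctp1 differed by 0.03 on the log2 scale (95% interval -0.16 to 0.22), Csn3 by 0.09 (-0.27 to 0.45) and Fam107a by -0.08 (-0.39 to 0.24). In 27 of the 48 the interval lay within a 2-fold change either way, and in the other 21 it did not. The largest differences upward were Calcrl at 0.67 (-0.02 to 1.35, adjusted p = 0.635) and Serpini1 at 0.51 (0.005 to 1.01, adjusted p = 0.622). Downward they were Sh3rf3 at -0.79 (-1.60 to 0.02, adjusted p = 0.641) and Map2 at -0.56 (-1.19 to 0.07, adjusted p = 0.679). Sh3rf3 had 1.07, 0.833 and 0.815 CPM with valemetostat and 1.3, 1.71 and 1.66 CPM with tazemetostat, so its libraries did not overlap between the compounds. A missed threshold does not show that the compounds act alike on these genes, and their doses are unknown.

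**Figure D4:**
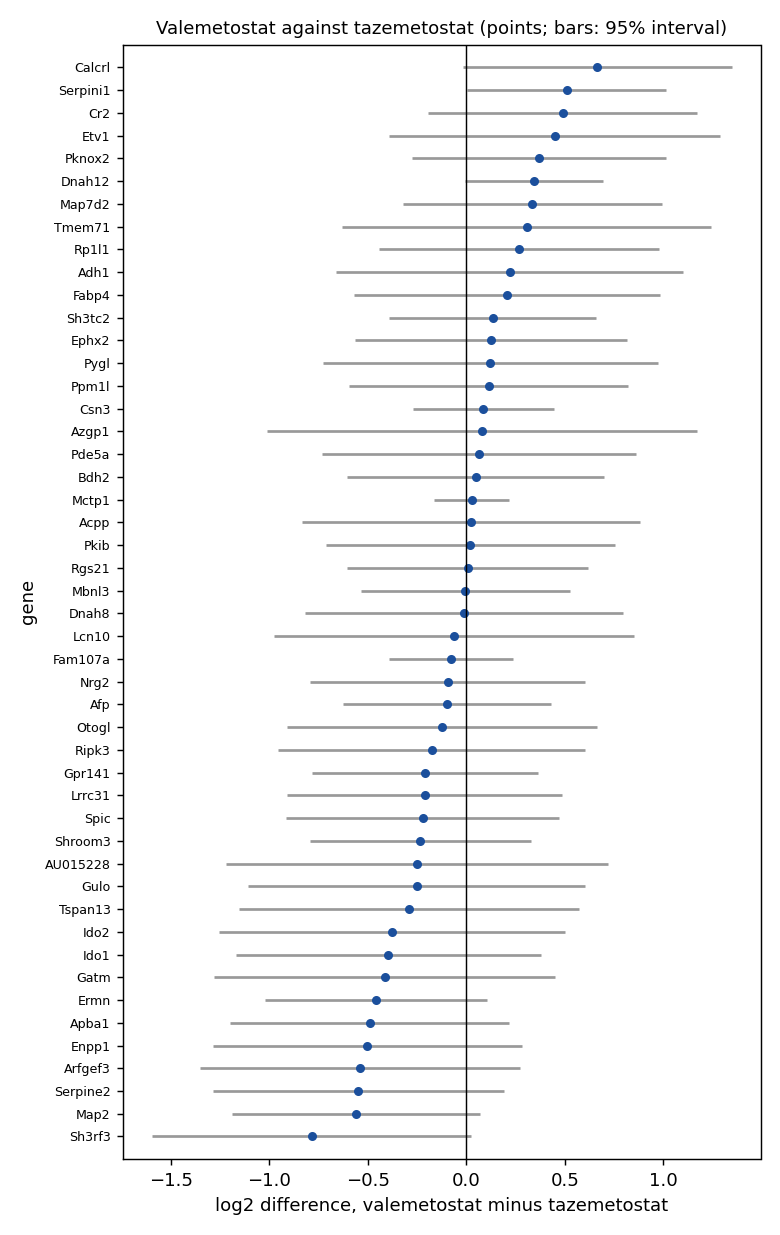
Log2 difference of valemetostat minus tazemetostat (x axis) for each of the 48 genes (y axis, ordered), with 95% intervals as bars. Points run from -0.79 for Sh3rf3 to 0.67 for Calcrl, and the interval of Serpini1 alone leaves out 0.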

How the data were processed

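RNA-seq libraries of stimulated Ligase4 KO CH12F3 cells, 3 each with tazemetostat, valemetostat and DMSO, were sequenced as 150-nt pairs from poly(A) RNA, per the labels' protocols. The authors deposited whole-number counts per gene and a table of log2(TPM + 1) values, on a log2 scale, TPM being transcript abundance scaled to a fixed total. Per the submitters' processing notes the genome build was mm9. The labels and headers name no aligner, counter, strand setting or annotation. CPM are counts over library totals of 34080504 to 46675110. Counts were fitted in edgeR 4.0.16 (R 4.3.3) with TMM scaling, filterByExpr by group (minimum count 10, total 15, 12580 genes kept) and the robust quasi-likelihood F test over all 9 libraries, with Benjamini-Hochberg adjusted p under 0.05 as the call. Errors of log2 changes are standard errors derived from F, and 95% intervals use the fit's t distribution. The scripts were tested on simulated data. Alternatives were DESeq2 1.42.0, limma 3.58.1 on log2(TPM + 1), other scalings and filters, a replicate block, a fit of only the groups compared, and leaving out each library. A transcript length and GC offset was added after seeing the data. No 2 replicates agreed within sampling noise (chi-square per degree of freedom 5.25 to 13.3). Ratios over DMSO are of summed counts over library totals, with exact 95% counting intervals, and a group at 0 was set to a floor of 3 counts. Intervals and floors cover counting error only, since reads are not independent molecules. GENCODE M21 and RefSeq promoters, both on GRCm38, gave names, neighbours and sequences. The 48 genes and the gene lists were chosen with earlier results of these data known, and roles and families after the gene names were seen. Values are printed for members by abundance (the 15 highest by CPM and by TPM), by 0 counts in DMSO, by list membership and by nearness to a threshold, and for others by role.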

Additional observations from a re-analysis of the deposited data

How the results depend on the processing

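The set itself moved with its thresholds. It held 29 genes with a DMSO mean under 0.1 CPM, 84 with a mean under 0.4 CPM and 18 with at least 1.5 CPM in each inhibitor library. All 48 were called higher with tazemetostat and valemetostat under every alternative except limma on log2(TPM + 1), which called 47 and 45. That alternative called 3123 genes with tazemetostat, 37.7% of them higher, against 52.3% of 4794, and the cause was not tested. Without TMM, 45.8% of the calls with tazemetostat were higher. Genes called between valemetostat and tazemetostat, 40 in the fit reported, numbered 77 with DESeq2, 93 without a count filter, 1 with limma on TPM and 80 with an offset for length and GC, an alternative chosen after seeing the data; the cause was not tested. Leaving out single libraries gave 9 (without valemetostat replicate 2) to 73 (without tazemetostat replicate 3) such genes, with 11, 19 and 13 without tazemetostat replicates 1 and 2 and valemetostat replicate 1. It gave 3926 to 4781 calls for tazemetostat against DMSO and 4072 to 5009 for valemetostat against DMSO. In none of the 19 settings was any of the 48 called between the compounds, and 27 kept the sign of their difference in all of them. The difference turned to 0.12 for Map2 and 0.026 for Fam107a with limma on TPM. For Mctp1 it ranged from -0.038 to 0.084 as single libraries were left out, and was below 0 only without valemetostat replicate 2. With a replicate block there were 4527, 4714 and 32 calls for tazemetostat and valemetostat against DMSO and between the compounds, with 0 of the 48 in the last. Same-numbered libraries correlated at -0.130 to 0.127 in their deviations from group means, and not every library correlated best with its own number, so the numbers were not taken to pair libraries. Depth limits the DMSO side of every ratio, where 3 counts are 0.0643 to 0.088 CPM.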
